A study of Mus musculus with 13 samples.

Results

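MHC class I molecules display peptides from inside a cell on its surface, and 9 mouse genes that build, load or switch on these molecules are described here: B2m, H2-D1, H2-K1, H2-T23, Tap1, Tap2, Tapbp, Erap1 and Nlrc5. They were chosen by name, with earlier results of these data known, and all 9 were found among the 19737 genes of the deposited expression table. All 9 also passed the filter for testing, which kept the 10817 genes whose mean over all 13 libraries was 1 FPKM or more. FPKM is the number of sequenced fragments of a gene for its length and for the size of the library.

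Microglia are the macrophages that live in brain tissue, and their RNA was sequenced after depletion of ribosomal RNA, in mice with or without amyloid pathology. The 5xFAD mouse carries transgenes with human familial Alzheimer's disease mutations under the Thy1 promoter, which is active in neurons, and develops amyloid plaques. Wild type mice (3 libraries) and 5xFAD mice (2 libraries) had been given AAV PHP.eB, an adeno-associated virus whose capsid reaches the brain from the blood, with EGFP as its cargo. In a further 4 libraries of 5xFAD mice the virus carried a circular RNA, circPOLR2A, and the last 4 libraries came from 5xFAD mice with knockout of PKR, the kinase that is switched on by double-stranded RNA. The treatment labels of the circRNA libraries read circPOLR2A(9,10), (9,11), (9,12) and (9,13), while the design text gives all 4 as (9,10), so they were grouped by their titles. No vector is named for the PKR knockout mice, and only their libraries carry library names. Any difference of vector or of library making between that group and the others therefore cannot be told apart from the knockout. Age, sex, strain, the promoter of the vectors and the way microglia were isolated are not given in the sources used here. Replicates are not stated to be separate animals, so p-values measure the spread between these libraries, which may be technical.

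A class I molecule is a heavy chain, encoded by an H2 gene in the mouse, bound to the invariant light chain beta-2 microglobulin. Proteins are cut into peptides by the proteasome, the peptides are pumped into the endoplasmic reticulum by the TAP1 and TAP2 transporter, trimmed there by ERAP1, and fitted into the heavy chain with the help of tapasin, the product of Tapbp. NLRC5 is the transactivator of class I genes. It binds no DNA on its own but joins a protein complex on the promoter, and interferons raise its transcription and that of most of the pathway. Microglia of a healthy brain hold little class I on their surface and gain it in inflammation and in neurodegeneration.

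The genome places 6 of the 9 genes in the MHC on mouse chromosome 17 (positions in GRCm38 with the GENCODE M21 annotation, all 9 protein-coding). H2-K1 (33996017 to 34000347) and H2-T23 (36029773 to 36032855) lie on the minus strand. Tapbp (33915899 to 33929292), Tap1 (34187553 to 34197225), Tap2 (34203527 to 34216321) and H2-D1 (35262730 to 35267499) lie on the plus strand. B2m is on chromosome 2 (122147686 to 122153083), Erap1 on chromosome 13 (74639568 to 74693201) and Nlrc5 on chromosome 8 (94434356 to 94527272).

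Similar H2 genes can share reads, and how the authors' counting treated reads with several matches is not given in the sources used here. Of all 50-base stretches in the annotated transcripts of H2-D1, 12.8% also occur in transcripts of other genes, with H2-Q1 (5.87%) and H2-K1 (5.44%) in the lead. The share was 9.63% for H2-K1 and 13.6% for H2-T23. At 100 bases it fell to 3.59% for H2-D1, 0.957% for H2-K1 and 3.15% for H2-T23. Tapbp shared 2.87% of its 50-base stretches, Tap2 0.655% and Tap1 0.442%, and B2m, Nlrc5 and Erap1 shared none. The split of reads between these 3 genes and similar genes is therefore uncertain, by an amount that was not measured. The heavy chain genes also differ between mouse strains in sequence, and with the strain not given, the effect of this on their levels was not tested.

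The promoters of the light chain and of the classical heavy chains share a short arrangement of letters that is shown here because these genes moved together in the data below. RefSeq promoter windows (GRCm38.p6, 250 bases before to 50 after the annotated start) were matched by symbol for 7 of the 9 genes. Tap2 and Nlrc5 were not matched. The bases before the start are printed for 5 genes, 5′ to 3′ on the strand of the gene, with matches in capitals.
B2m (GRCm38.p6, chr2:122147437-122147686, + strand): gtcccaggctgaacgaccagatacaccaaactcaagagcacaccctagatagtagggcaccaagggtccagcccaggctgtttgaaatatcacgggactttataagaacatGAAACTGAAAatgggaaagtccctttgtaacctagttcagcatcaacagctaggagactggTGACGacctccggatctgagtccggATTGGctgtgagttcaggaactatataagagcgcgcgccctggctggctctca
H2-K1 (GRCm38.p6, chr17:34000334-34000583, - strand): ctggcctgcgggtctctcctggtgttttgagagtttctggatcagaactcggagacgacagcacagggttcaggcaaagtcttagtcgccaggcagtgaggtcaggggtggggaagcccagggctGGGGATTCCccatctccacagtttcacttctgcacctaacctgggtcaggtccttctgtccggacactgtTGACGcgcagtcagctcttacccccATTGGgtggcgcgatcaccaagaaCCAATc
H2-D1 (GRCm38.p6, chr17:35262844-35263093, + strand): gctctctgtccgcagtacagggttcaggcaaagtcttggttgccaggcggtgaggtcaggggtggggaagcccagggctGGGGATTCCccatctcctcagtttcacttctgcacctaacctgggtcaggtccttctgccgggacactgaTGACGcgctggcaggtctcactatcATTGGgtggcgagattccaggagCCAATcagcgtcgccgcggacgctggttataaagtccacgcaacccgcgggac
H2-T23 (GRCm38.p6, chr17:36032702-36032951, - strand): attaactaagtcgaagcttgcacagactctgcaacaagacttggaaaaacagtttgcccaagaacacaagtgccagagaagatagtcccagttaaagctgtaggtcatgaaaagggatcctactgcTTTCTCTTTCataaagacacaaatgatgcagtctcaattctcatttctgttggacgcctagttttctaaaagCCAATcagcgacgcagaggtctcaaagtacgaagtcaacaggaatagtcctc
Tap1 (GRCm38.p6, chr17:34187306-34187555, + strand): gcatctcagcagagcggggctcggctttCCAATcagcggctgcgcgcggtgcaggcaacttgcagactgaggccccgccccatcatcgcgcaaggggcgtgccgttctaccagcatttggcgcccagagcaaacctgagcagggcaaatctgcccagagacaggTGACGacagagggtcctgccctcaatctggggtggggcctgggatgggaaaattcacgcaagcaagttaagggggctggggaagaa
The capitals mark 4 motifs, searched on both strands: GAAANNGAAA (the core of the interferon-stimulated response element), GGGNNTTCC (a kappaB site), TGACG (the X2 box of MHC promoters) and CCAAT (the Y box, ATTGG on the other strand). Of 32851 promoter windows of the same length, 3.44% hold the first, 5.82% the kappaB letters, 20.8% the X2 letters and 37.4% the Y letters.

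With the start site counted as 0, the X2 letters were found at -78 to -74 in B2m, at -55 to -51 in H2-K1 and at -101 to -97 in H2-D1. In each of these 3 genes the Y letters follow on the opposite strand after exactly 20 bases. That spacing was chosen after the sequences were seen. It occurs in 31 of the 32851 windows (0.0944%), in 27 of 27025 genes, and in H2-M3 as the only match among 10 further class I heavy chain genes with a window. The kappaB letters precede it in H2-K1 (-125 to -117) and H2-D1 (-171 to -163), and the interferon core precedes it in B2m (-139 to -130). H2-T23 has the interferon core on the opposite strand (-124 to -115) and the Y letters (-52 to -48), without the X2 letters. Tap1 has the X2 letters (-86 to -82) and a distant Y box (-222 to -218). Erap1 has the interferon core across the start site (-4 to 5), and Tapbp has only Y letters (-248 to -244 and -165 to -161). These are matches of letters, and binding was not measured.

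**Figure D1:**
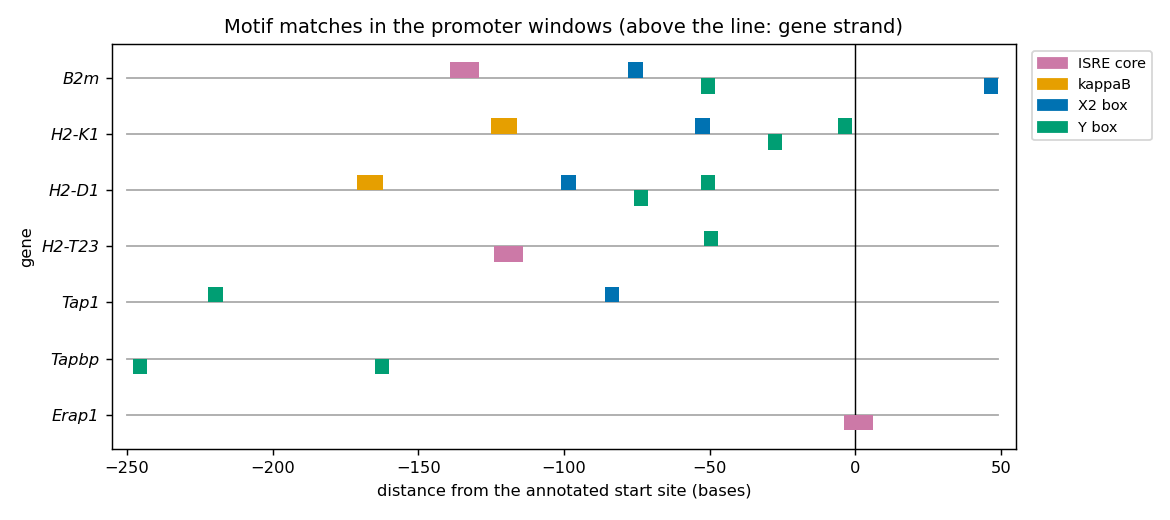
Matches of the 4 motifs in the promoter windows of the 7 genes that have one, by distance from the annotated start site in bases, with matches on the gene strand above each line and those on the other strand below. B2m, H2-K1 and H2-D1 each show an X2 box (blue) with a Y box (green) below the line 20 bases after it, and H2-K1 and H2-D1 also show a kappaB site (orange) upstream. H2-K1 is drawn from its window that starts at the lower coordinate.

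Depth, recovered from the steps between low FPKM values, ranged from 45.2 to 69.99 M (mega) fragments per library. The PKR knockout libraries were the deepest, at 57.7 to 69.99 M, and all others lay at 45.2 to 54.9 M. Among the 9 genes the fragments per library ran from 597 to 5264 for Nlrc5, a counting error of 4.09% to 1.38%, and from 12203 to 63399 for B2m, so counting error is small beside most of the differences below. Eif2ak2, which encodes PKR, was at 3.31 to 4.61 FPKM in the PKR knockout libraries, 4.14 to 5.23 in wild type, 6.49 to 6.59 in 5xFAD EGFP and 7.37 to 8.11 in 5xFAD circRNA. The knockout libraries lay below every other 5xFAD library and overlapped wild type, and which part of the gene was deleted is not given in the sources used here. Microglial markers were high in every library, at a summed 2670 to 4550 FPKM over 8 genes. Of 11 listed T and NK cell genes 10 were in the table, and these, Cd3e and Cd8a among them, were each under 1 FPKM in every library. Their sum was 0.597 to 0.988 FPKM in wild type, 0.838 to 1.0 in 5xFAD EGFP, 1.18 to 1.38 with circRNA and 0.956 to 1.13 with PKR knockout. Markers of other brain cells that moved with the groups are given beside the results.

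Class I expression was higher in 5xFAD than in wild type microglia, most at the light chain, the classical heavy chains and the transactivator, and least at Tap2 and Erap1. In 5xFAD EGFP against wild type EGFP, 6 of the 9 genes passed an adjusted p of 0.05 and all 6 were higher, against 7.65% of the 10817 tested genes that were higher (limma on log2(FPKM + 1), Benjamini-Hochberg adjustment over all tested genes). The median change of the 9 genes was 0.65 on the log2 scale, and that of all tested genes was -0.03. With circRNA, 8 of 9 passed and rose against wild type, beside 17.8% of all tested genes, with a median change of 1.12 (all tested genes 0.02). With PKR knockout, 7 of 9 passed and rose, beside 17.5% of all tested genes, with a median change of 1.15 (all tested genes -0.05). These 3 comparisons share the same wild type libraries. Rescaling all libraries to the same FPKM sum moved the median change of all tested genes to -0.17, -0.20 and -0.24, and the share that was higher among all called genes from 54.6%, 68.8% and 47.5% to 19%, 17.4% and 17.7%. Median-ratio scaling moved that share of the called genes to 63.2%, 64.2% and 65.7%. After rescaling to the same sum the medians of the 9 class I genes were 0.48, 0.84 and 0.92, and 6, 6 and 7 of them passed, all higher, beside 6.52%, 9.16% and 10.8% of all tested genes. Log2 changes here are of FPKM + 1, which understates the change of low genes such as Nlrc5.

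**Figure D2:**
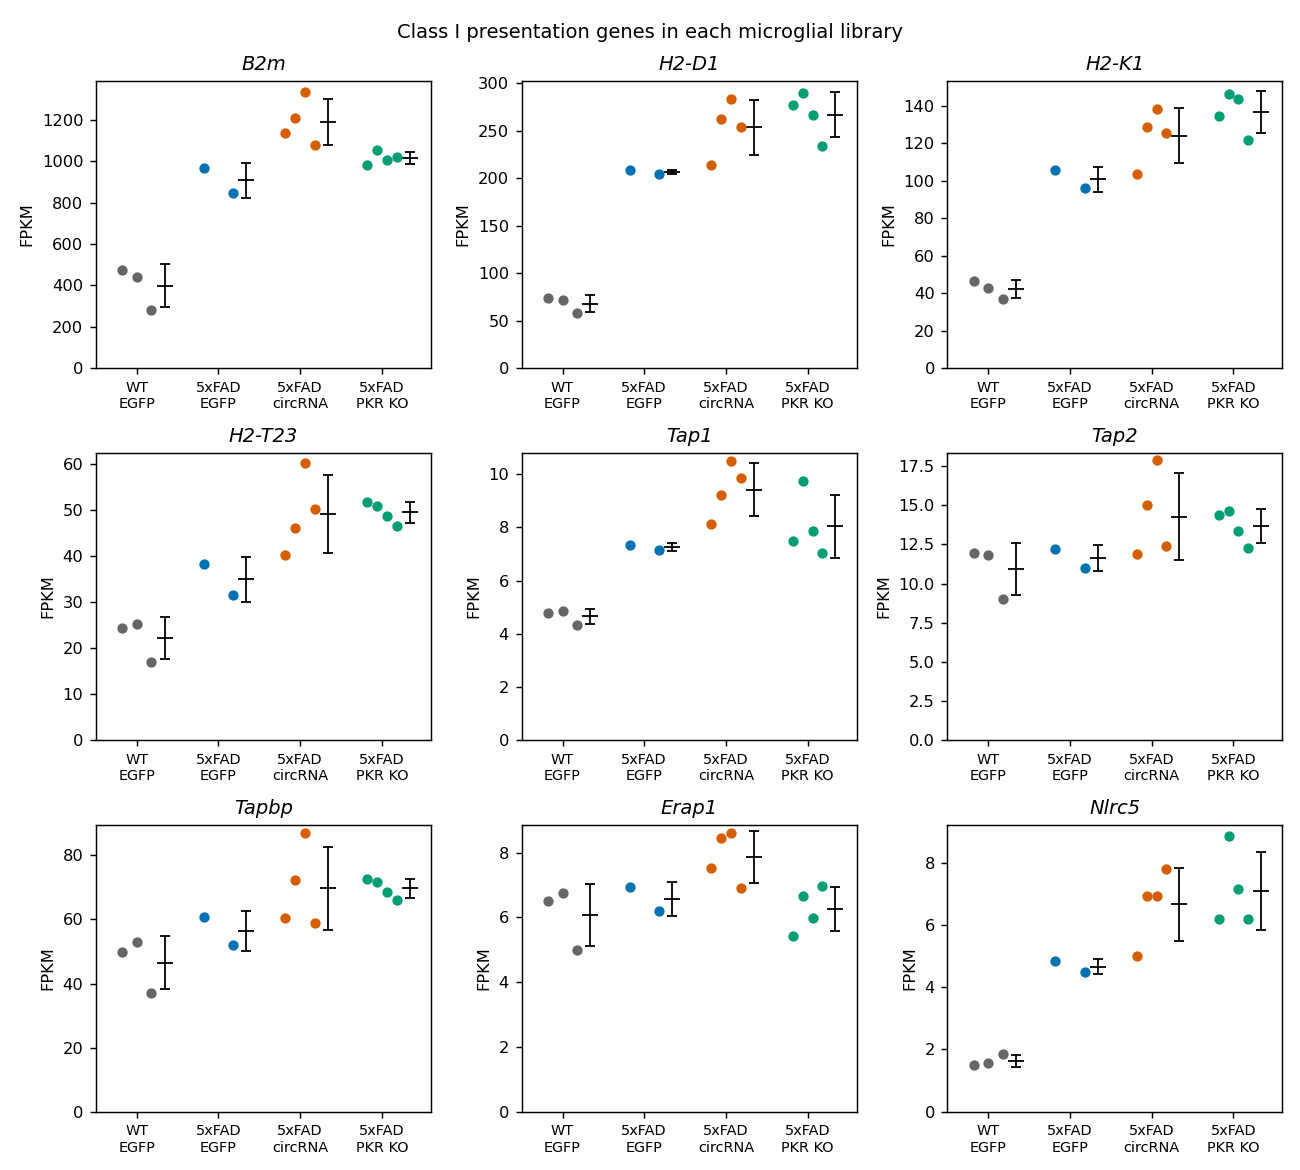
FPKM of each gene in each of the 13 libraries, by group, with the group mean and SD drawn beside the points, on linear axes that start at 0. B2m, H2-D1, H2-K1, H2-T23, Tap1 and Nlrc5 have every 5xFAD library above every wild type library, while wild type and 5xFAD EGFP overlap for Tap2, Tapbp and Erap1.

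B2m encodes the light chain that all classical class I molecules need, and it was the most abundant of the 9 messages per length in every library. It stood at 475, 439 and 281 FPKM in wild type, 968 and 848 in 5xFAD EGFP, 1137.5, 1211, 1335 and 1078.5 with circRNA, and 981, 1053, 1006 and 1019 with PKR knockout. The 4 groups did not overlap at all: wild type was lowest, then 5xFAD EGFP, then PKR knockout, then circRNA. The rise over wild type was 1.22 ± 0.22 (SE) in 5xFAD EGFP (limma adjusted p = 0.00292), 1.61 ± 0.18 with circRNA (4.27e-05) and 1.38 ± 0.18 with PKR knockout (0.000112). The call in 5xFAD EGFP was lost in 3 of 12 alternative analyses, with limma adjusted p-values of 0.0631 without the filter on low values, 0.102 with the 2 groups fitted alone and 0.178 with a vascular covariate. The steps within 5xFAD were smaller and did not pass: 0.39 ± 0.20 for circRNA and 0.16 ± 0.20 for PKR knockout over 5xFAD EGFP (adjusted p = 0.739 and 0.746), and 0.23 ± 0.17 between circRNA and PKR knockout (0.42).

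H2-D1 and H2-K1 encode the classical heavy chains, which present peptides to cytotoxic T cells. H2-D1 was measured at 73.6, 72.2 and 58.2 FPKM in wild type, 208 and 205 in 5xFAD EGFP, 213, 262, 284 and 254 with circRNA, and 277, 289.5, 267 and 234 with PKR knockout. On log2(FPKM + 1) it had the largest change of the 9 genes in each comparison with wild type: 1.60 ± 0.16 (SE) in 5xFAD EGFP (limma adjusted p = 3.3e-05), 1.88 ± 0.13 with circRNA (8e-07) and 1.96 ± 0.13 with PKR knockout (4.66e-07). With a pseudocount of 0.1 FPKM that order held in 5xFAD EGFP, and Nlrc5 exceeded H2-D1 with circRNA (1.95 against 1.90) and with PKR knockout (2.04 against 1.98). The 2 libraries of 5xFAD EGFP differed by little (206.5 ± 2.54, SD, n = 2) and lay below every circRNA and PKR knockout library, although these differences (0.29 ± 0.15 and 0.36 ± 0.15) did not pass (adjusted p = 0.739 and 0.325).

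H2-K1 was at 46.5, 42.6 and 37.1 FPKM in wild type, 105.5 and 96.1 in 5xFAD EGFP, 104, 129, 138 and 125 with circRNA, and 135, 146, 144 and 122 with PKR knockout. Its rise over wild type was 1.25 ± 0.14 (SE) in 5xFAD EGFP (limma adjusted p = 0.00014), 1.54 ± 0.12 with circRNA (2.59e-06) and 1.68 ± 0.12 with PKR knockout (9.65e-07). All PKR knockout libraries were above both 5xFAD EGFP libraries, by 0.43 ± 0.14, with an unadjusted p of 0.00815 that did not survive adjustment (limma adjusted p = 0.227). The circRNA libraries overlapped those of 5xFAD EGFP in H2-K1 through circRNA replicate 1.

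H2-T23 encodes Qa-1, a nonclassical heavy chain that presents leader peptides of other class I molecules to the CD94 and NKG2 receptors of NK cells and some T cells. Its values were 24.3, 25.3 and 16.9 FPKM in wild type, 38.3 and 31.5 in 5xFAD EGFP, 40.2, 46.1, 60.3 and 50.3 with circRNA, and 51.9, 50.9, 48.8 and 46.5 with PKR knockout. It rose by 0.65 ± 0.18 (SE) in 5xFAD EGFP (limma adjusted p = 0.0327), 1.12 ± 0.15 with circRNA (0.00019) and 1.15 ± 0.15 with PKR knockout (0.000135). In 5xFAD EGFP this call was the least stable of the 6, since it was lost in 6 of 12 alternative analyses. These were a change of 0.47 without wild type replicate 3 (limma adjusted p = 0.056), 0.51 without 5xFAD EGFP replicate 1 (0.239) and 0.79 without 5xFAD EGFP replicate 2 (0.087). The others were 0.64 with the replicate block (0.09), 0.65 with the 2 groups alone (0.168) and 0.69 with a vascular covariate (0.261). Both other 5xFAD groups lay above 5xFAD EGFP in H2-T23 without overlap, at 0.47 ± 0.17 with circRNA and 0.50 ± 0.17 with PKR knockout (adjusted p = 0.739 and 0.256).

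Of the 2 subunits of the peptide transporter, Tap1 passed against wild type in each 5xFAD group and Tap2 in none, and their ratio is compared further on. Tap1 was at 4.80, 4.84 and 4.33 FPKM in wild type, 7.35 and 7.14 in 5xFAD EGFP, 8.14, 9.22, 10.5 and 9.85 with circRNA, and 7.48, 9.74, 7.88 and 7.05 with PKR knockout. It rose by 0.55 ± 0.12 (SE) in 5xFAD EGFP (limma adjusted p = 0.0107), 0.88 ± 0.10 with circRNA (5.52e-05) and 0.67 ± 0.10 with PKR knockout (0.000353). The call in 5xFAD EGFP was lost without either of its 2 libraries (adjusted p = 0.0804 without replicate 1 and 0.0749 without replicate 2). Tap2 was at 12.0, 11.8 and 9.00 FPKM in wild type, 12.2 and 11.0 in 5xFAD EGFP, 11.9, 15.01, 17.9 and 12.4 with circRNA, and 14.4, 14.7, 13.4 and 12.3 with PKR knockout. It did not pass against wild type in any group, at 0.09 ± 0.16 in 5xFAD EGFP (adjusted p = 0.773), 0.35 ± 0.14 with circRNA (0.0767) and 0.31 ± 0.14 with PKR knockout (0.0944). In 1 of 14 alternative analyses each, Tap2 passed with circRNA (0.43 without circRNA replicate 1, limma adjusted p = 0.0452) and with PKR knockout (0.41 under median-ratio scaling, 0.0213). The small Tap2 difference in 5xFAD EGFP changed sign when the libraries were rescaled to the same sum (-0.07) and without wild type replicate 3 (-0.03).

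Tapasin, encoded by Tapbp, bridges the transporter and the empty heavy chain. Tapbp was at 49.7, 52.8 and 37.1 FPKM in wild type, 60.9 and 51.9 in 5xFAD EGFP, 60.6, 72.2, 87.1 and 58.9 with circRNA, and 72.6, 71.6, 68.6 and 66.2 with PKR knockout. Wild type and 5xFAD EGFP overlapped (0.28 ± 0.18, SE, limma adjusted p = 0.353), while the circRNA and PKR knockout libraries all lay above wild type and passed, at 0.57 ± 0.15 (adjusted p = 0.0146) and 0.59 ± 0.15 (0.00938). The circRNA call in Tapbp was lost in 3 of 14 alternative analyses, and the PKR knockout call was lost in 1, with a vascular covariate (adjusted p = 0.134).

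Erap1 encodes the aminopeptidase that trims peptides in the endoplasmic reticulum to the length that class I molecules hold. Its values were 6.51, 6.74 and 4.99 FPKM in wild type, 6.93 and 6.20 in 5xFAD EGFP, 7.52, 8.46, 8.60 and 6.90 with circRNA, and 5.43, 6.65, 5.996 and 6.96 with PKR knockout. Only the circRNA group passed against wild type, by 0.33 ± 0.11 (SE, limma adjusted p = 0.0418), and that call was lost in 10 of 14 alternative analyses, leaving out wild type replicate 3 among them (adjusted p = 0.155). The changes in 5xFAD EGFP (0.10 ± 0.13) and with PKR knockout (0.04 ± 0.11) did not pass and changed sign when the libraries were rescaled to the same sum (-0.05 and -0.16). Erap1 was 0.29 ± 0.10 higher with circRNA than with PKR knockout, with an unadjusted p of 0.0135 and a limma adjusted p of 0.099.

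Nlrc5, the transactivator, was the lowest of the 9 messages per length in wild type. It was at 1.49, 1.57 and 1.86 FPKM in wild type, 4.83 and 4.49 in 5xFAD EGFP, 5.01, 6.94, 6.92 and 7.79 with circRNA, and 6.20, 8.86, 7.15 and 6.18 with PKR knockout. The changes were 1.10 ± 0.16 (SE) in 5xFAD EGFP (limma adjusted p = 0.000782), 1.53 ± 0.13 with circRNA (6.1e-06) and 1.61 ± 0.13 with PKR knockout (2.93e-06). Every circRNA and PKR knockout library lay above both 5xFAD EGFP libraries, by 0.42 ± 0.15 and 0.50 ± 0.15 (unadjusted p = 0.0157 and 0.00582), and neither passed (limma adjusted p = 0.739 and 0.216). H2-D1, H2-K1 and Nlrc5 kept their calls against wild type in every alternative analysis of all 3 comparisons.

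**Figure D3:**
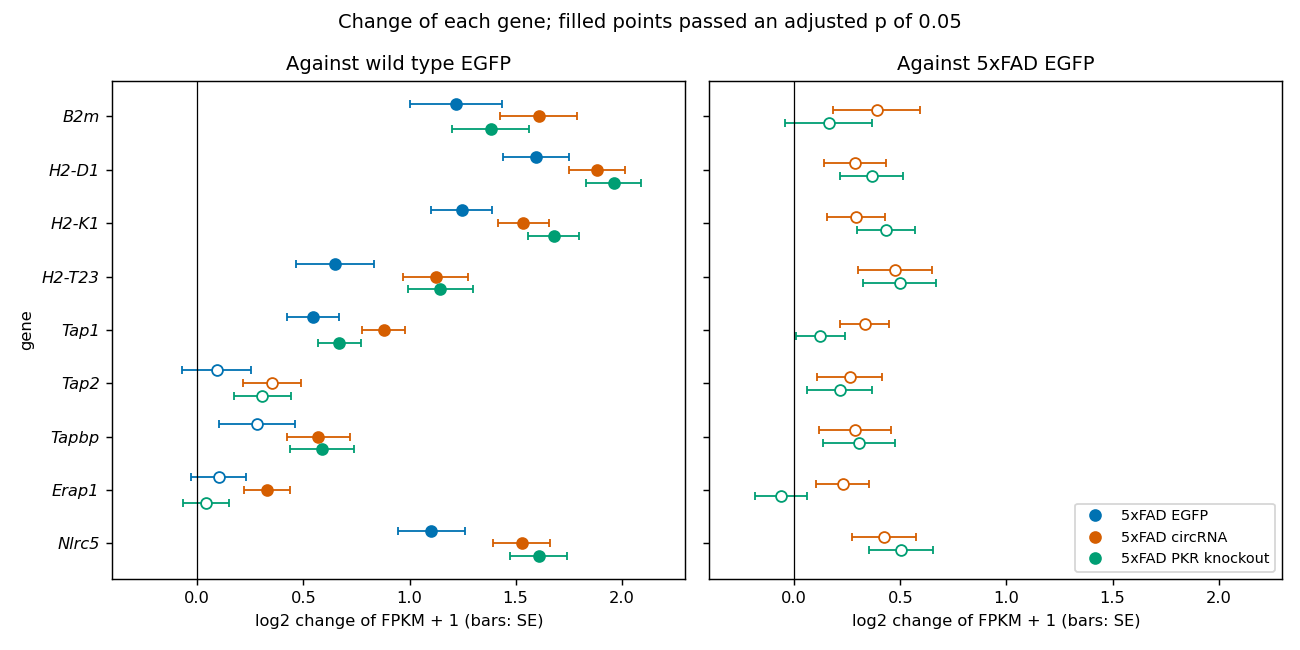
Log2 change of FPKM + 1 with its SE for each gene, against wild type EGFP on the left and against 5xFAD EGFP on the right, with filled points where the adjusted p passed 0.05. The largest changes against wild type on this scale are those of H2-D1 (1.60, 1.88 and 1.96), with Nlrc5 above it in 2 of the 3 comparisons at a pseudocount of 0.1, and no point on the right is filled.

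Within 5xFAD no difference among the groups passed for any of the 9 genes, at 2 to 4 libraries a group. In circRNA against 5xFAD EGFP 0 of 9 passed in limma, as did 0% of all 10817 tested genes, with 3 of the 9 at an unadjusted p under 0.05 (H2-T23, Tap1 and Nlrc5). All 9 were higher with circRNA, from 0.23 (Erap1) to 0.47 (H2-T23), and their median was 0.29 against 0.08 over all tested genes (0.17 against -0.01 after rescaling to the same sum). In PKR knockout against 5xFAD EGFP 0 of 9 passed in limma, beside 0.0832% of all tested genes, with 4 at an unadjusted p under 0.05 (Nlrc5, H2-K1, H2-T23 and H2-D1). There 8 of 9 were higher, and their median was 0.31 against 0.01 over all tested genes (0.19 against -0.03 without 5xFAD EGFP replicate 2). Both comparisons use the same 2 libraries of 5xFAD EGFP. Between circRNA and PKR knockout 0 of 9 passed in limma, beside 6.19% of all tested genes, with 2 at an unadjusted p under 0.05 (Erap1 and Tap1, both higher with circRNA). In that comparison 4 of 9 were higher with circRNA, and the median was -0.02 against 0.08 over all tested genes. That median had no stable sign, at 0.07 without circRNA replicate 1, -0.10 without circRNA replicate 3 and -0.145 under median-ratio scaling. Against 5xFAD EGFP the only mean that was lower in either group was that of Erap1 with PKR knockout, at -0.06 ± 0.12 (SE, adjusted p = 0.845). Its sign turned with the vascular covariate described below (0.01) and without 5xFAD EGFP replicate 1 (0.01).

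The proportion of heavy to light chain message was compared within each library, where the library total cancels in a ratio of FPKM. In the tested log2 ratios of FPKM + 1 it cancels only approximately, least so for low genes such as Tap1. For each FPKM of H2-K1 there were 10.2, 10.3 and 7.58 FPKM of B2m in wild type, 9.18 and 8.82 in 5xFAD EGFP, 11.0, 9.40, 9.66 and 8.61 with circRNA, and 7.28, 7.20, 7.01 and 8.38 with PKR knockout. The PKR knockout libraries held less B2m for each H2-K1 than all circRNA and 5xFAD EGFP libraries, without overlap. The log2 ratio of H2-K1 to B2m with circRNA differed from that with PKR knockout by -0.37 (-3.26 ± 0.14 against -2.89 ± 0.11, SD, n = 4 each; exact two-sided permutation p = 0.0286). For each FPKM of H2-D1 there were 6.46, 6.09 and 4.84 FPKM of B2m in wild type, 4.65 and 4.14 in 5xFAD EGFP, 5.33, 4.62, 4.70 and 4.24 with circRNA, and 3.54, 3.64, 3.77 and 4.35 with PKR knockout. That log2 ratio was 0.58 higher with PKR knockout than in wild type (exact permutation p = 0.0286). None of the 18 ratio comparisons passed adjustment, and both of these had an adjusted p of 0.129. Exact tests could not go below p = 0.0286 with 4 against 3 or 4 against 4 libraries, 0.0667 with 4 against 2 and 0.1 with 2 against 3. From these smallest values, adjustment over the 18 comparisons cannot give an adjusted p under 0.05. That none passed was therefore fixed by the number of libraries and says nothing about the ratios.

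The ratio of the transporter subunits separated all 5xFAD libraries from wild type, though none of its tests could pass adjustment at these group sizes. For each FPKM of Tap1 there were 2.49, 2.44 and 2.08 FPKM of Tap2 in wild type, 1.66 and 1.54 in 5xFAD EGFP, 1.46, 1.63, 1.71 and 1.26 with circRNA, and 1.92, 1.51, 1.70 and 1.74 with PKR knockout. Every 5xFAD library held less Tap2 for each Tap1 than every wild type library. The log2 ratio of Tap1 to Tap2 was higher by 0.45 in 5xFAD EGFP, 0.53 with circRNA and 0.36 with PKR knockout, each at the smallest p its exact permutation test allows (0.1, 0.0286 and 0.0286, adjusted 0.257, 0.129 and 0.129).

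The order of the levels changed between the groups. In wild type Tapbp (46.6 ± 8.30 FPKM, SD, n = 3) and H2-K1 (42.0 ± 4.72) did not differ beyond their spread, and in 5xFAD EGFP H2-K1 (101 ± 6.66, n = 2) stood above Tapbp (56.4 ± 6.39). Likewise Tap1 (4.66 ± 0.29) was below Erap1 (6.08 ± 0.95) in wild type, with no overlap, and the 2 genes were at 7.25 ± 0.15 and 6.56 ± 0.52 in 5xFAD EGFP. With PKR knockout Nlrc5 (7.10 ± 1.26, n = 4) reached the level of Erap1 (6.26 ± 0.68) and Tap1 (8.04 ± 1.18), whose ranges it overlapped.

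Of the 9 genes, all but Nlrc5 also varied together among libraries of the same group. Deviations from the group means over the 13 libraries, set against the mean of the other 8 genes, gave a Pearson r of 0.92 for Tap2, 0.91 for H2-D1, 0.90 for H2-K1, 0.88 for H2-T23 and 0.86 for Tapbp. The r was 0.75 for Tap1, 0.74 for B2m, 0.61 for Erap1 and 0.25 for Nlrc5. These points share their library and its total, so they are given as a description. Wild type replicate 3 was the lowest wild type library in 8 of the 9 genes and the highest in Nlrc5, and its mean deviation over the 9 genes was -0.22 (0.11 in each of the other wild type libraries). Among circRNA libraries replicate 1 was low (-0.20) and replicate 3 high (0.20). Outside the 9 genes, the tested genes whose deviations were most like their mean were Fzr1 (r = 0.97, an activator of the anaphase-promoting complex), Psmb9 (0.96, an immunoproteasome subunit whose gene lies beside Tap1), Irf1 (0.96, an interferon regulatory factor), Gga1 (0.96, a Golgi sorting adaptor), Trim34a (0.96, a tripartite motif protein) and Themis2 (0.96, a signalling adaptor of macrophages and B cells).

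Most of the further class I heavy chain genes that were tested rose in 5xFAD. Of 15 listed genes 12 were in the table and 7 passed the filter, and 6 of these 7 passed and were higher in each of the 3 comparisons with wild type, beside 7.65%, 17.8% and 17.5% of all tested genes. H2-Q1 is among these 6 (named after its values were seen). It was under 1 FPKM in every wild type library (0.814 to 0.851) and passed the filter only through its higher 5xFAD values. H2-Q6 rose from 4.15 ± 0.50 FPKM in wild type (SD, n = 3) to 13.7 ± 0.22 in 5xFAD EGFP (n = 2), H2-Q7 from 1.58 ± 0.16 to 5.70 ± 0.46 and H2-M3 from 8.29 ± 1.85 to 18.3 ± 0.17. Their log2 changes were 1.52, 1.38 and 1.08 (limma adjusted p = 0.000111, 0.00013 and 0.000386). H2-Q6 and H2-Q7 encode Qa-2 molecules and H2-M3 presents N-formylated peptides. H2-T24 was the exception (chosen after its values were seen), at -0.13 in 5xFAD EGFP (adjusted p = 0.595), 0.15 with circRNA and 0.17 with PKR knockout. The median over the 7 genes was 1.04 in 5xFAD EGFP, 1.36 with circRNA and 1.42 with PKR knockout. Genes of this family can share reads, and the extent of this was measured only for the 9 genes.

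The steps around the heavy chains had smaller median changes. Among 6 immunoproteasome and proteasome activator genes 1 rose in 5xFAD EGFP, 4 with circRNA and 5 with PKR knockout, where 7.65%, 17.8% and 17.5% of all tested genes rose, and the medians were 0.33, 0.57 and 0.49. Psmb8, a catalytic subunit of the immunoproteasome, rose from 6.57 ± 1.64 FPKM in wild type (SD, n = 3) to 10.4 ± 0.94 in 5xFAD EGFP (n = 2), by 0.61 (limma adjusted p = 0.0464). Of the 3 catalytic subunits of the constitutive proteasome, Psmb6 rose by 0.57 in 5xFAD EGFP (adjusted p = 0.0192). Psmb7 was 0.32 higher with circRNA than with PKR knockout (adjusted p = 0.0128). Of 7 further genes of the loading complex and of folding in the endoplasmic reticulum, 0 passed in limma in 5xFAD EGFP (2 at an unadjusted p under 0.05), 4 rose with circRNA and 5 with PKR knockout. Those that passed with circRNA were Calr (0.81), Canx (0.61), Pdia3 (0.51) and Bcap31 (0.46), and Hspa5 (1.18) joined them with PKR knockout. These 5 were named after their values were seen, and Calr encodes calreticulin, which holds the heavy chain during loading. Among 6 other peptide-trimming genes 0 rose in limma in the 3 comparisons with wild type, with 1 higher at an unadjusted p under 0.05 with circRNA and 1 with PKR knockout. Lnpep, which trims peptides in endosomes, fell by 0.42 with PKR knockout against wild type (adjusted p = 0.00843) and was 0.36 higher with circRNA than with PKR knockout (0.0483).

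The genes for the partners of NLRC5 on the promoter did not pass. Of 14 listed enhanceosome and transcription factor genes 13 were tested, and 1 rose in 5xFAD EGFP, 2 with circRNA and 2 with PKR knockout, with medians of -0.01, 0.07 and 0.05. These counts are near the share of all tested genes that rose (7.65%, 17.8% and 17.5%). None of Rfx5, Rfxank, Rfxap, Nfya, Nfyb and Nfyc, whose products form the complexes on the X and Y boxes and which were named for that role, passed in the 3 comparisons with wild type, where their changes ran from -0.23 to 0.18 and none had an unadjusted p under 0.05. Irf8, an interferon regulatory factor of the myeloid lineage, rose from 30.1 ± 5.36 FPKM in wild type (SD, n = 3) to 44.2 ± 0.95 in 5xFAD EGFP (n = 2), by 0.56 (limma adjusted p = 0.026). Irf1 was at 0.16 in 5xFAD EGFP (adjusted p = 0.541) and rose by 0.44 with circRNA (0.0185) and by 0.86 with PKR knockout (0.000208). Its change in circRNA against PKR knockout was -0.42 (0.0491).

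Of 10 listed interferon receptor and signalling genes 2 rose in 5xFAD EGFP and 5 in each of the other 5xFAD groups, beside 7.65%, 17.8% and 17.5% of all tested genes, with medians of 0.13, 0.27 and 0.31 over the 10. Stat2, a signal transducer of the type I interferon receptor, rose in 5xFAD EGFP by 0.48 (limma adjusted p = 0.0142). Among 4 tested class I-like genes none passed in 5xFAD EGFP in limma (2 at an unadjusted p under 0.05 lower, 1 higher). Fcgrt and Hfe, which encode the neonatal Fc receptor and the iron regulator HFE and whose proteins also pair with beta-2 microglobulin, fell by 0.45 and 0.46 with PKR knockout (limma adjusted p = 0.0289 and 0.0311). Procr, the endothelial protein C receptor gene, rose by 0.54 with circRNA and by 0.66 with PKR knockout (0.00165 and 0.000305). It was at 0.834 to 0.888 FPKM in wild type and passed the filter only through its higher 5xFAD values. Cd1d1 did not pass the filter, with means of 1.20 FPKM in wild type, 0.87 in 5xFAD EGFP, 0.80 with circRNA and 0.62 with PKR knockout. Mr1, which encodes the class I-like molecule that presents vitamin metabolites, rose by 0.41 with circRNA (0.00628). Fcgrt, Hfe, Procr, Cd1d1 and Mr1 were named after their values were seen. Of 12 listed receptors for class I and their relatives 3 were tested. Lilrb4a, an inhibitory receptor gene of that family, rose by 2.83 in 5xFAD EGFP (adjusted p = 1.44e-06), by 2.84 with circRNA (1.44e-07) and by 2.58 with PKR knockout (3.04e-07). Pirb, the inhibitory receptor that binds class I molecules, was at -0.26 in 5xFAD EGFP (limma adjusted p = 0.362) and -0.22 with circRNA (0.283), and it fell by 0.39 with PKR knockout (0.0458). Pilra, a paired receptor gene, was at 0.19 in 5xFAD EGFP (adjusted p = 0.488) and 0.22 with PKR knockout (0.22), and it rose by 0.47 with circRNA (0.0211). Pirb and Pilra were named after their values were seen.

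**Figure D4:**
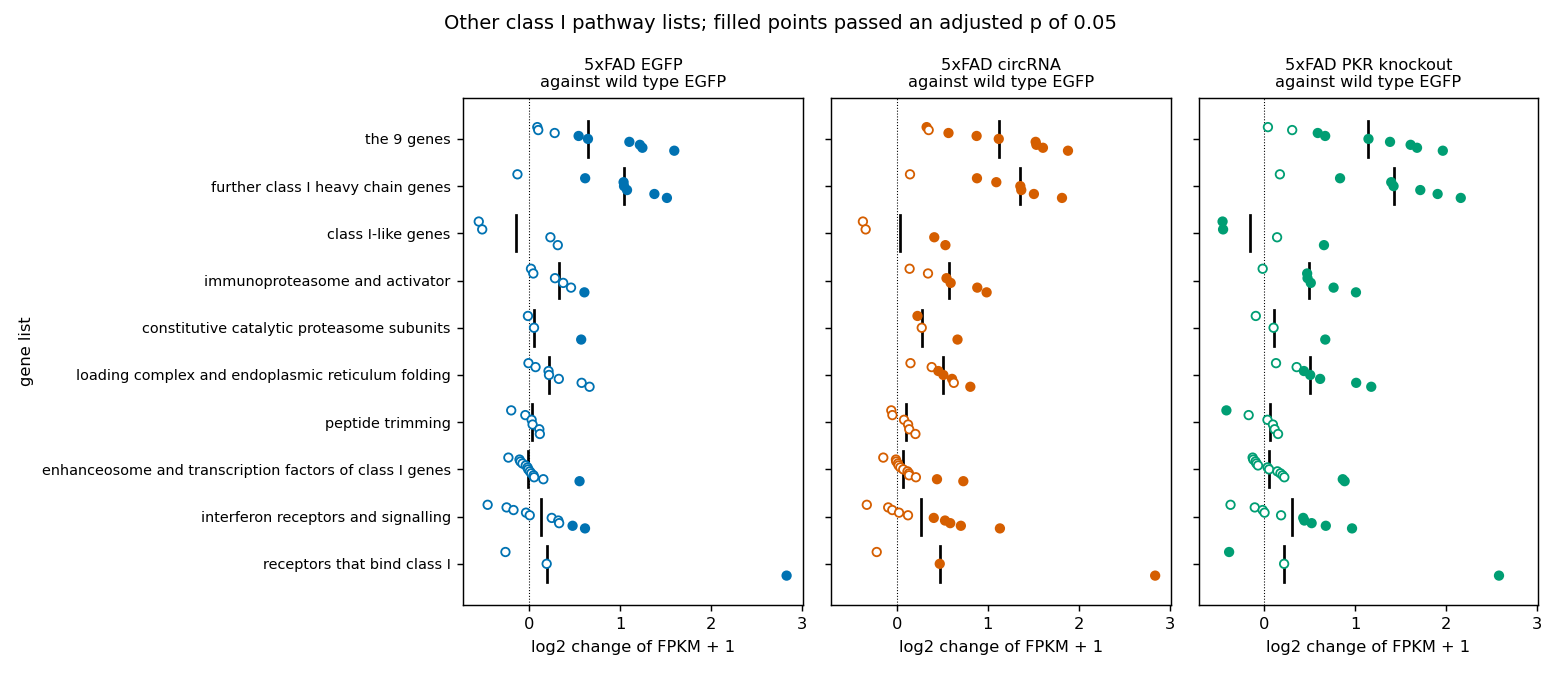
Log2 change of FPKM + 1 against wild type EGFP for every tested gene of the 9 genes and of 9 further lists, in the 5xFAD groups, with filled points where the adjusted p passed 0.05 and a bar at the median of each list. The class I heavy chain lists sit furthest to the right (medians 1.04, 1.36 and 1.42 for the further heavy chain genes), and the enhanceosome list sits near 0.

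Markers of other cells moved with the comparison of 5xFAD and wild type. Blood vessel cells express class I genes as well. In bulk RNA, fewer cells of a type and less RNA in each cell cannot be told apart. The 9 vascular and mural markers summed to 107 to 234 FPKM in wild type, 43.1 to 66.6 in 5xFAD EGFP, 63.5 to 120 with circRNA and 61.3 to 102 with PKR knockout. Of these 9, 7 fell in 5xFAD EGFP, 5 with circRNA and 7 with PKR knockout, beside 6.35%, 8.05% and 19.4% of all tested genes that were lower. Within 5xFAD all 9 were higher than in 5xFAD EGFP with circRNA (median change 0.51) and with PKR knockout (0.39), as most class I genes were, and none passed. The part of this in the class I differences within 5xFAD was not tested. The mean log2(FPKM + 1) of these markers was then used as a covariate. With it, 3 of the 9 class I genes remained called in 5xFAD EGFP: H2-D1 (1.60, limma adjusted p = 0.00966), H2-K1 (1.33, 0.0164) and Nlrc5 (1.20, 0.0392). All 3 were higher, beside 2.62% of all tested genes. The calls of the other 3 were lost: B2m was at 1.00 (adjusted p = 0.178), H2-T23 at 0.69 (0.261) and Tap1 at 0.55 (0.179). With the same covariate 6 genes remained called and higher with circRNA, beside 12.4% of all tested genes, and 6 with PKR knockout, beside 11.1%. Each time these were B2m, H2-D1, H2-K1, H2-T23, Tap1 and Nlrc5.

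The 5 border macrophage markers summed to 29.7 to 47.5 FPKM in wild type and 11.2 to 20.4 in the 5xFAD libraries, and all 4 that were tested fell in each 5xFAD group. Dendritic cell markers summed to at most 1.73 FPKM in any library, and Flt3, Xcr1 and Clec9a were each under 1 FPKM throughout. The 4 B cell markers summed to at most 3.96 FPKM in any library. Of these, Cd79b reached 3.86 FPKM and did not pass in any comparison with wild type, and Cd79a and Ms4a1 were under 1 FPKM in every library. Of the 8 microglial markers 1 fell in 5xFAD EGFP, 1 with circRNA and 2 with PKR knockout, where 6.35%, 8.05% and 19.4% of all tested genes fell, and the rest did not pass. Oligodendrocyte markers summed to 246 to 1090 FPKM in wild type, 448 to 485 in 5xFAD EGFP, 203 to 538 with circRNA and 151 to 246 with PKR knockout, and none of the 4 passed in limma against wild type. Astrocyte markers summed to 76.4 to 281 FPKM in wild type, 135 to 196 in 5xFAD EGFP, 119 to 226 with circRNA and 131 to 212 with PKR knockout. Among these 5, Gfap, an intermediate filament of reactive astrocytes, rose from 19.3 ± 9.49 FPKM in wild type (SD, n = 3) to 62.5 ± 17.1 in 5xFAD EGFP (n = 2), 68.9 ± 19.8 with circRNA and 91.1 ± 21.8 with PKR knockout (n = 4 each). Its changes were 1.72, 1.84 and 2.25 (limma adjusted p = 0.00868, 0.000896 and 0.000159). Aqp4, a water channel, and Gja1, a gap junction protein, fell by 0.93 and 1.36 with PKR knockout (adjusted p = 0.0408 and 0.0123), and no other astrocyte marker passed against wild type. Neuronal markers summed to at most 23.7 FPKM and neutrophil markers to at most 16.4 in any library. The part of the border macrophages and of the astrocytes in the class I changes was not tested. The border macrophage markers were lower where the class I genes were higher. Gfap was higher there, but the astrocyte list as a whole was not. Of its 5 markers 1 was above wild type in 5xFAD EGFP, 2 with circRNA and 1 with PKR knockout (median changes -0.10, -0.13 and -0.54).

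Without wild type replicate 3, which held the highest vascular sum (234 FPKM) and the lowest values of 8 class I genes, 5 of the 9 remained called and higher in 5xFAD EGFP, 7 with circRNA and 7 with PKR knockout, beside 9.03%, 15.3% and 15.5% of all tested genes. The changes of H2-D1 in 5xFAD EGFP (1.49), H2-K1 (1.16) and Nlrc5 (1.16) kept limma adjusted p-values of 4.91e-05, 0.000249 and 0.000964, and that of B2m fell from 1.22 to 0.99 (0.00169).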

How the data were processed

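Ribosomal RNA-depleted RNA was measured in 13 libraries of mouse microglia in 4 groups. Per the labels' protocols, RNA was extracted with TRIzol, depleted with RiboMinus, made into stranded TruSeq total RNA libraries and sequenced on a NovaSeq instrument. The submitters' processing notes name Bowtie2 2.3.5, HISAT2 2.1.0, featureCounts 1.5.1 and mm10, without their order. The annotation and the strand setting of the counting are not given in the sources used here. The authors deposited 1 table of FPKM values, with 1 column for each library, not pooled.

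From it, genes whose mean was 1 FPKM or more were tested on log2(FPKM + 1) by limma 3.58.1 (R 4.3.3). All libraries entered 1 model with 4 group means (9 residual degrees of freedom) and an intensity trend. Each of the 6 comparisons had its own Benjamini-Hochberg adjustment, at a threshold of 0.05. Ratios of genes within a library, as log2 ratios of FPKM + 1, were compared by exact two-sided permutation tests, adjusted over 18. The fit was tested on simulated data.

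Depth came from the low values, which are multiples of what 1 fragment is worth. Union exon lengths of GENCODE M21 were found for 19394 genes (98.3%). Of 47122 values under 0.3 FPKM, 90.7% were whole within 0.02 of a fragment (4% by chance) and 96.3% were multiples of 0.5 (8% by chance). Counting errors cover counting alone.

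Alternatives were a pseudocount of 0.1, no filter on low values, other scalings, the replicate block, a covariate of the summed vascular markers, the 2 compared groups alone, and each library left out. The 9 genes and the other lists were chosen with earlier results of these data known. Named were all 9 genes, Eif2ak2, up to 3 genes of each list with the largest change among those that passed in 5xFAD EGFP against wild type, genes of a list that passed within 5xFAD, and the 6 genes most like the 9. Names outside this rule are marked as named after their values were seen, except the X and Y box factors and cell type markers, named as members of their lists. Some listed genes are not reported here. The lists were of further heavy chain, class I-like, proteasome, loading, trimming, transcription factor, interferon and receptor genes, and of cell type markers.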

Additional observations from a re-analysis of the deposited data

How the results depend on the processing

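The calls of H2-D1, H2-K1 and Nlrc5 against wild type held under all alternatives, and no gene of the 9 was called lower under any. Between 3 (vascular covariate) and 6 of the 9 genes were called in 5xFAD EGFP against wild type (5 with the replicate block), 6 to 8 with circRNA (7 with the block) and 6 to 8 with PKR knockout (7 with the block). Over all tested genes the number called in either direction ran from 309 to 3733, 1579 to 5714 and 1628 to 6639 in these comparisons. With the block it was 1306, 2678 and 3870 of 10817. Within 5xFAD 0 of the 9 genes were called, except 1 (H2-T23) in PKR knockout against 5xFAD EGFP with these 2 groups fitted alone, beside 541 of 10545 tested genes. The groups hold 2 to 4 libraries, which limits the precision. Where a group was left with 1 library, it was assumed to vary like the others.

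Over all genes, 5xFAD EGFP against wild type called 1514, but 3733 after rescaling to the same sum, 309 with the vascular covariate, 393 with the 2 groups alone and 566 to 1979 with 1 library left out (670 without 5xFAD EGFP replicate 1 and 566 without replicate 2). The count for circRNA against wild type was 2796, 5714 after rescaling, 1579 with the vascular covariate and 1720 alone. For PKR knockout against wild type it was 3997, 6639 after rescaling and 1628 with the vascular covariate. PKR knockout against 5xFAD EGFP called 9 genes, 0 with a pseudocount of 0.1, without the filter or after rescaling, 46 under median-ratio scaling, 22 with the replicate block, 4 with the vascular covariate, 541 with the 2 groups alone and 0 to 2 with 1 library left out. CircRNA against PKR knockout called 670 (69.1% higher; 49.7% of 684 after rescaling and 17.4% of 844 under median-ratio scaling) and 146 to 508 with 1 library left out. That count was 162 without circRNA replicate 1, 309 without circRNA replicate 3, and 146, 160 and 225 without PKR knockout replicates 1, 2 and 3.

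Uncalled changes that turned sign were those of Tap2 (-0.069 after rescaling, -0.030 to 0.161 with 1 library left out) and Erap1 (-0.049 after rescaling, -0.161 with the vascular covariate, -0.0138 to 0.172 with 1 library left out) in 5xFAD EGFP against wild type. With 1 library left out, these were negative only without wild type replicate 3. With PKR knockout against wild type, Erap1 was at -0.162 after rescaling, -0.149 with the vascular covariate and -0.0759 to 0.109 with 1 library left out. Against 5xFAD EGFP it was at 0.0121 with the vascular covariate and -0.132 to 0.0079 with 1 library left out. In circRNA against PKR knockout, Tap2 was at -0.0087 after rescaling and -0.075 under median-ratio scaling. Leaving out 1 library there gave -0.0624 to 0.123 for Tap2, -0.1397 to 0.0012 for H2-D1, -0.1235 to 0.068 for H2-T23, -0.1294 to 0.0558 for Tapbp and -0.1508 to 0.0322 for Nlrc5. The log2 ratio of H2-K1 to B2m ran from -0.0487 to 0.175 in 5xFAD EGFP against wild type and from -0.1485 to 0.0753 with circRNA against wild type when 1 library was left out, and that of Tap1 to Tap2 ran from -0.0065 to 0.132 in circRNA against 5xFAD EGFP. The cause of these turns was not tested.

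Replicate numbers are shared between the groups, but same-numbered libraries did not deviate together throughout (mean r from 0.02 to 0.33 over the 6 comparisons, single pairs from -0.422 to 0.69), so the block is no paired analysis. Of 8 libraries in circRNA against PKR knockout 2 correlated best with their own number, as did 2 of 6 in each of the comparisons of circRNA and of PKR knockout with wild type. With only 2 shared numbers, 4 of 4 did in PKR knockout against 5xFAD EGFP (r from 0.273 to 0.382) and 2 of 4 in each of the others. The block cost the calls of H2-T23 in 5xFAD EGFP and of Erap1 with circRNA.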
